A study of Mus musculus with 7 samples.

Results

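The genes described here were chosen by symbol to stand for the building and driving of motile cilia, and single members may act elsewhere. They are the 92 genes of the count table whose symbols name axonemal dynein heavy chains (Dnah), dynein intermediate chains (Dnai), cilia and flagella associated proteins (Cfap), radial spoke proteins (Rsph), nexin-dynein regulatory complex subunits (Drc), tektins (Tekt) or outer arm docking proteins (Odad), together with 10 genes taken by name. The symbol patterns gave 82 genes, and the named ones were Foxj1, Mcidas, Gmnc, Ccno, Rfx2, Rfx3, Hydin, Ccdc39, Ccdc40 and Deup1. The whole table held 40873 usable genes. Membership was read from symbols alone, but the rule was chosen with earlier results of these data known.

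Poly(A) RNA of lateral ventricle choroid plexus, the tissue that secretes cerebrospinal fluid, was sequenced from CD-1 embryos (an outbred mouse stock) of WT genotype at E15.5 (embryonic day). The embryos had received red blood cells (3 libraries) or saline (4 libraries) 24 h earlier, and the tissue was pooled. The red blood cells had been spun out of E14.5 donor blood (1 litter, citrate as anticoagulant), washed and resuspended in saline. All libraries carry the batch label 1 and each is labelled a biological replicate. The sources used here do not say how many embryos or litters make up a pool, so p-values cover only library-to-library spread.

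Motile cilia beat because dynein arms on the outer microtubule doublets slide one doublet against its neighbour, while nexin links, radial spokes and the central pair of microtubules turn sliding into an ordered bend. In multiciliated cells, geminin-family proteins (Gmnc, then Mcidas) start the amplification of centrioles, which needs Ccno and Deup1, and the transcription factors Foxj1, Rfx2 and Rfx3 switch on the genes of the ciliary shaft. Choroid plexus epithelial cells carry tufts of cilia at the surface that faces the cerebrospinal fluid. In bulk tissue, fewer ciliated cells and less RNA per ciliated cell cannot be told apart.

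RFX factors bind the X-box, a pair of half-sites, in many ciliary promoters, and the promoters below show such half-sites in genes whose values are given later. Promoters came from RefSeq on GRCm38.p6, which is not the build of the count table (GRCm39), and cover 250 bases before the start of a gene. Of the 92 genes, 62 had a promoter there. The half-site GTTGCC, searched on both strands, occurred in 21 of these 62 genes (33.9%), and in 3195 of all 27025 genes with a promoter (11.8%). The paired form (the X-box, with any letters at its variable positions, both strands) occurred in 1 member, Cfap298 (1.61%), and in 120 of all genes (0.444%), and its letters can overlap the half-site. The forkhead motif GTAAACA occurred in 4 members (6.45%), namely Cfap20, Cfap43, Dnah17 and Tekt3, and in 956 of all genes (3.54%). By role, the half-site occurred in 4 of 6 regulators with a promoter (Ccno, Deup1, Mcidas and Rfx2). It occurred in 4 of 9 inner arm heavy chains, namely Dnah10 and the near-identical copies Dnah7a, Dnah7b and Dnah7c. The outer arm heavy chains had it in 0 of 5 and the radial spoke genes in 0 of 7. Central pair genes had it in 3 of 6, dynein assembly genes in 2 of 2 and microtubule inner proteins in 4 of 11. Ruler and nexin link genes had it in 2 of 9, intermediate chain and docking genes in 1 of 3 and other Cfap genes in 1 of 4. Foxj1, Rsph1 and Rsph4a were among the members without a promoter there. Such a match is a run of letters and no measured binding site. The stretches of 60 bases that follow hold the half-site of 3 regulators, of Cfap44 (a tether of an inner dynein arm) and of Cfap58, whose values are described below. They are written 5′ to 3′ along the strand of the gene, with the half-site on either strand in capitals.

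Mcidas: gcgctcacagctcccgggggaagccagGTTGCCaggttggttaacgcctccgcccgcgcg
Ccno: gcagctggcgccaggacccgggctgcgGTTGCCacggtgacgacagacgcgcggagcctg
Rfx2: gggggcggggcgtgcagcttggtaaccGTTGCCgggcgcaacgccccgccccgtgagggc
Cfap44: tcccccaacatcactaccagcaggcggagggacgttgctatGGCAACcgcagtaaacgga
Cfap58: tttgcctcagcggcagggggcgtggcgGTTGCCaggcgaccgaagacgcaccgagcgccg

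On GRCm38.p6 these stretches are chr13:112993646-112993705 (plus strand), chr13:112987556-112987615 (plus strand), chr17:56831092-56831151 (minus strand), chr16:44394739-44394798 (plus strand) and chr19:47937626-47937685 (plus strand). Counted to the gene starts of the GRCm38.p6 promoters, the half-sites end 190 bases before Mcidas, 214 before Ccno, 111 before Rfx2, 14 before Cfap44 and 54 before Cfap58. Those starts can differ from the gene starts of the count table. Cfap44 holds a second half-site, not in the stretch shown, that ends 124 bases before its start. Ccno (chr13:113124363-113127313) and Mcidas (chr13:113130104-113138233, both on the plus strand of GRCm39) are neighbours, with 2790 bases between them.

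Total counts per library ran from 4393860 to 8386928, and a count of 3 was worth 0.358 to 0.683 CPM (counts scaled to library size). Of the markers of the labelled tissue, Ttr, the transthyretin gene, had 10128, 11804 and 12013 CPM in the red blood cell libraries and 11802, 11490, 10049.8 and 14878 CPM in the saline libraries. Over all 14869 genes that passed the count filter, edgeR's quasi-likelihood test with Benjamini-Hochberg adjustment called 9 genes at an adjusted p under 0.05, 6 of them higher (0.0404%) and 3 lower (0.0202%) after red blood cells. With single libraries left out that count ran from 1 to 283, where leaving out red blood cells 3 gave 283 genes, red blood cells 2 gave 34, red blood cells 1 gave 17, saline 4 gave 5, and each other saline library gave 1.

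The motile cilium genes as a whole took 0.966, 0.903 and 0.863% of all counts in the red blood cell libraries, against 0.897, 0.942, 0.958 and 0.936% in the saline libraries, and the groups overlapped. Of the 92 genes, 89 passed the count filter. The rest were Dnah14 with 11 counts in all 7 libraries, Tekt3 with 23 and Rsph6a, a radial spoke head gene known from sperm, with 0.

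None of the 89 members passed the edgeR threshold (0 called, background 0.0605% of all genes). Log2 fold changes, red blood cells over saline, ran from -0.61 to 0.40, with 46 members above 0 and 43 below. The background share above 0 was 49.9%. Their median was 0.0029, and that of all genes was -0.00034. At an unadjusted p under 0.05 there were 11 members (12.4%), beside 9.54% of all genes: 4 higher (background 5.22%) and 7 lower (background 4.32%). Without red blood cells 3 there were 18 (20.2%), of which 11 were higher and 7 lower, beside 13.4% of all genes in that fit. With single libraries left out, the share of members ran from 9.09 to 20.2%, and that of all genes from 7.35 to 13.4%. In 7 members the groups did not overlap (background 9.59%): in 2 every red blood cell library lay above every saline library (background 4.96%), and in 5 every one lay below (background 4.63%). DESeq2 called 2 members, Hydin and Dnah2 (background 1.87%), and limma-voom 0 (background 0.0605%).

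The precision of the data bounds what could have gone unseen. For 76 of the 89 members (85.4%) the 95% interval of the fold change lay inside a 1.5-fold change in either direction, beside 68% of all genes. For 86 of them it lay inside a 2-fold change. The exceptions were Dnah12 and the thinly counted Cfap107 and Dnah17, which had 79 and 92 counts over all libraries. The median standard error of the log2 fold change was 0.11 in the members and 0.13 over all genes.

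**Figure D1:**
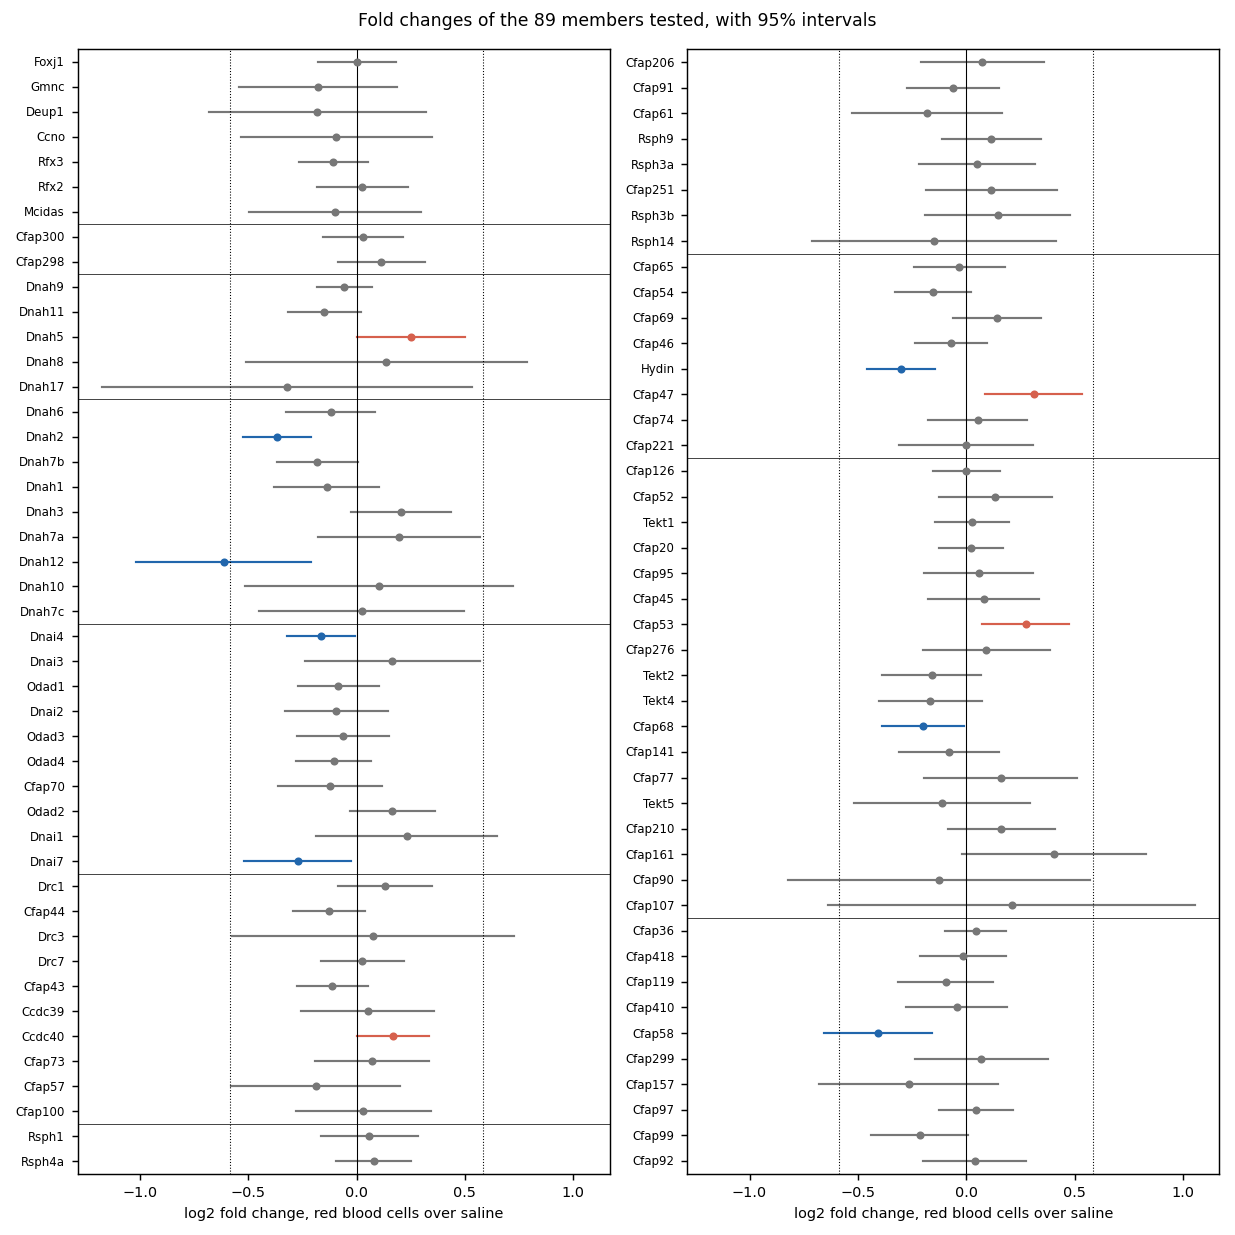
Log2 fold change of each of the 89 members tested (red blood cells over saline, points) with its 95% interval (lines), grouped by role in the order regulators, dynein assembly, outer arm, inner arm, intermediate chains and docking, ruler and nexin link, radial spokes, central pair, microtubule inner proteins and other Cfap genes. Dotted lines mark a 1.5-fold change, and colour marks an unadjusted edgeR p under 0.05 (red higher, 4 genes; blue lower, 7 genes); 76 intervals lie between the dotted lines.

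Of the 7 regulators, 5 had a log2 fold change below 0 and 2 above it, with a median of -0.10. Foxj1, the forkhead factor of motile ciliogenesis (chr11:116221530-116226331, minus strand), had 607, 579.9 and 537 CPM in the red blood cell libraries, against 549.5, 607, 505 and 633 CPM in the saline libraries. The saline libraries spanned all 3 red blood cell libraries. On the log2 scale the fold change was 0.00 ± 0.08 (SE), its interval running from -0.18 to 0.18 (edgeR adjusted p = 0.998). Per kilobase of exon it was the most abundant of the 92 genes, at 208 CPM in both groups.

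Rfx3, an RFX factor of ciliary genes, had 308, 296 and 321 CPM after red blood cells and 330.0, 303, 367 and 327 CPM after saline, with a log2 fold change of -0.11 ± 0.07. Rfx2, a second RFX factor, had 39.4, 39.5 and 33.7 CPM after red blood cells and 38.3, 39.5, 34.6 and 35.2 CPM after saline, with a log2 fold change of 0.03 ± 0.10. Gmnc, the geminin relative that acts before Mcidas, had 99.4, 109 and 83.1 CPM after red blood cells and 119, 93.2, 136 and 89.4 CPM after saline. In all 3 genes the groups overlapped.

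The genes of centriole amplification varied between libraries of one group. Mcidas, which starts the multiciliated programme, had 34.4, 25.0 and 38.4 CPM after red blood cells and 30.0, 42.5, 28.9 and 38.7 CPM after saline. Ccno, a cyclin needed to multiply centrioles, had 39.7, 24.7 and 35.7 CPM after red blood cells and 29.4, 45.9, 31.2 and 36.4 CPM after saline. Deup1, the scaffold of the deuterosome on which new centrioles form, had 91.2, 56.4 and 79.8 CPM after red blood cells and 63.4, 103, 80.9 and 98.4 CPM after saline.

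In these genes red blood cells 2 was the lowest of all 7 libraries, and saline 2 and 4 were the highest saline libraries. The log2 fold changes were -0.10 ± 0.18 for Mcidas, -0.09 ± 0.19 for Ccno and -0.18 ± 0.21 for Deup1. Without red blood cells 2 they were 0.06, 0.09 and -0.01, and without saline 2 they were 0.0059, 0.05 and -0.09, so the sign for Mcidas and Ccno turned with either library. Red blood cells 2 was also low in neural progenitor markers (10 genes from Nes and Sox2 to Eomes), with a mean log2 level of -0.98 relative to saline, against -0.26 and 0.20 in red blood cells 1 and 3 and -0.13 to 0.20 in the saline libraries. Only 2 of these 10 genes lay above their saline mean in that library, and the median over the 10 was -0.54. The summed level of the 10 genes was 286 CPM there, 347 and 459 CPM in the other red blood cell libraries and 339 to 374 CPM in the saline libraries. For 8 neuronal markers the level in red blood cells 2 was -1.54, with 0 of 8 above the saline mean, and the summed level was 63.7 CPM, against 116 and 118 CPM in red blood cells 1 and 3 and 115 to 176 CPM in the saline libraries. No marker of either list was at 0 over all libraries. Saline 1 was the lowest saline library in the mean log2 level of Mcidas, Ccno and Deup1 (-0.29). Its neural progenitor level was -0.03 and its neuronal level 0.20. The part of these cells in the values of Mcidas, Ccno and Deup1 was not tested.

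**Figure D2:**
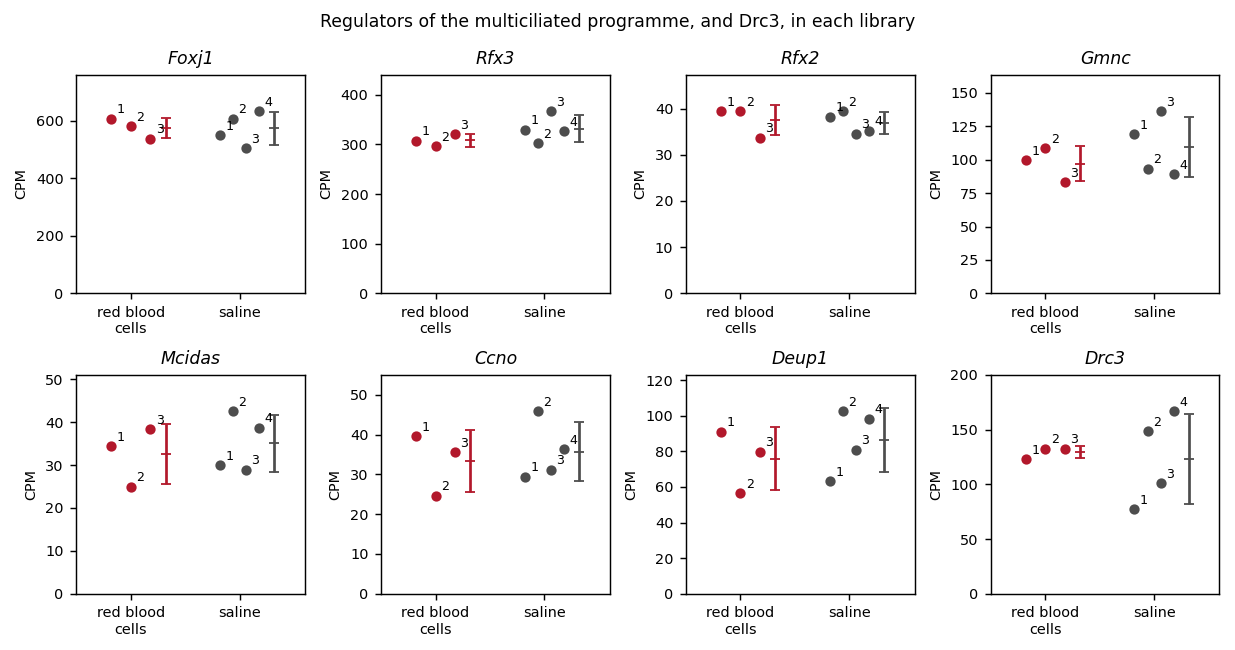
Level in CPM of the 7 regulators and of Drc3 in each library, red blood cells left and saline right, with digits for the replicate and a bar for the mean and SD. Foxj1 lies between 505 and 633 CPM in all 7 libraries, red blood cells 2 is the lowest point for Mcidas, Ccno and Deup1, and Drc3 spreads from 77.3 to 167 CPM within saline.

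The outer dynein arms, which supply most of the power of the beat, showed no called change in any of their 5 heavy chains. Dnah9, a beta-type heavy chain (chr11:65722150-66059379, minus strand), had 337, 327 and 335 CPM after red blood cells and 331, 346, 361 and 349 CPM after saline. Its log2 fold change of -0.06 ± 0.06 had an interval from -0.18 to 0.07. Dnah11, its close relative, had 167, 176 and 146 CPM after red blood cells and 178, 173, 195 and 177 CPM after saline.

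Dnah5, the gamma-type heavy chain that pairs with Dnah9 or Dnah11 (chr15:28155000-28472191, plus strand), had 25.7, 23.0 and 24.4 CPM after red blood cells and 20.2, 19.9, 23.0 and 18.5 CPM after saline. The groups did not overlap, although the lowest red blood cell library and the highest saline library nearly touched. The log2 fold change was 0.25 ± 0.11 (edgeR adjusted p = 0.515). Per kilobase, Dnah9 exceeded Dnah5 by 12.9-, 14.0- and 13.5-fold in the red blood cell libraries, and by 16.0-, 17.1-, 15.4- and 18.5-fold in the saline libraries. This ratio was chosen after its values were seen and was not tested. Dnah8 and Dnah17, outer arm chains known from sperm, were scarce, at 0.549 and 0.115 CPM per kilobase after red blood cells, against 0.492 and 0.149 after saline.

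Inner dynein arms shape the bend. Of their 9 heavy chains tested, 5 were below 0 and 4 above, with a median log2 fold change of -0.12. Dnah2, a heavy chain of the 2-headed inner arm dynein (chr11:69311635-69439934, minus strand), had 98.8, 86.4 and 98.1 CPM after red blood cells, against 122, 122, 121 and 123 CPM after saline. All 3 red blood cell libraries lay below all 4 saline libraries. The log2 fold change was -0.37 ± 0.07 with an interval from -0.52 to -0.21, the smallest p of the members (edgeR adjusted p = 0.0969, DESeq2 adjusted p = 0.00375). Without red blood cells 3 it passed (edgeR adjusted p = 0.0329). With any other single library left out, no member had an edgeR adjusted p under 0.11. With a replicate block the smallest of the members was 0.297 (edgeR adjusted p). The saline libraries differed by less than counting alone gives (coefficient of variation 0.64%, against 3.58% from counting), and so did those of 12 members in all.

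Dnah12, another inner arm chain (chr14:26412709-26614250, plus strand), had 20.6, 15.9 and 11.4 CPM after red blood cells, against 23.2, 24.1, 29.1 and 21.8 CPM after saline. The groups did not overlap, and the log2 fold change of -0.61 ± 0.18 was the most negative of the members (edgeR adjusted p = 0.234). Dnah10, which partners Dnah2 in the same 2-headed dynein, averaged 26.1 ± 8.29 CPM after red blood cells and 24.5 ± 7.23 CPM after saline (SD, n = 3 and 4), and its interval ran from -0.51 to 0.72. Dnah6, the most abundant heavy chain, had 543, 550.4 and 512 CPM after red blood cells and 573, 496, 682 and 574 CPM after saline, with a log2 fold change of -0.12 ± 0.09. Dnah7a, Dnah7b and Dnah7c are near-identical copies, and how reads were divided among them is uncertain.

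Of the 10 intermediate chain and docking genes, 7 were below 0. Dnai4, an inner arm intermediate chain, had 276, 267 and 268 CPM after red blood cells and 289, 277, 330.1 and 316 CPM after saline. The groups did not overlap, by a gap of under 1 CPM, and the log2 fold change was -0.16 ± 0.07 (edgeR adjusted p = 0.481). Dnai7 had 47.2, 33.1 and 41.6 CPM after red blood cells and 46.7, 49.7, 48.7 and 51.7 CPM after saline, where red blood cells 1 lay within the saline range. Its log2 fold change was -0.27 ± 0.11 (edgeR adjusted p = 0.448). Dnai3, an inner arm intermediate chain, spread widely after red blood cells, at 244, 187 and 143 CPM, against 151, 172, 194 and 167 CPM after saline. Cfap298 and Cfap300, which help to preassemble dynein arms in the cytoplasm, had log2 fold changes of 0.11 ± 0.09 and 0.03 ± 0.08.

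The ruler that sets the spacing of arms and spokes along the doublet is made of Ccdc39 and Ccdc40. Ccdc40 had 200.4, 193 and 181 CPM after red blood cells and 155, 183, 164 and 182 CPM after saline, with a log2 fold change of 0.17 ± 0.08 (edgeR adjusted p = 0.515). Ccdc39 had 323, 229 and 244 CPM after red blood cells and 247, 229, 302 and 247 CPM after saline, with a log2 fold change of 0.05 ± 0.13. Both shared exon bases with a gene on the opposite strand (52.6% of the exon bases of Ccdc39, with Ttc14, and 11.4% of those of Ccdc40), so their levels are uncertain without the strand setting of the counting. In all, 30 members shared exon bases with an opposite-strand gene, 7 of them at least 10% of their exon bases.

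Drc1, a subunit of the nexin link, had 146, 175 and 164 CPM after red blood cells and 130.3, 158, 136 and 168 CPM after saline. Drc3, of the same complex, had 123, 132 and 133 CPM after red blood cells, against 77.3, 148, 101 and 167 CPM after saline, and its interval ran from -0.57 to 0.72. Cfap44, which tethers the 2-headed inner arm dynein, had 419, 461 and 387 CPM after red blood cells and 472, 445, 497 and 430.3 CPM after saline, with a log2 fold change of -0.13 ± 0.08.

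Of the 10 radial spoke genes tested, 7 were above 0, with a median of 0.07, and 0 had an unadjusted p under 0.05. Rsph1, a spoke head protein, had 201, 194 and 171 CPM after red blood cells and 157, 186, 169 and 214 CPM after saline, and 11.7% of its exon bases overlap Ubash3a on the opposite strand. Rsph4a and Rsph9, spoke head proteins as well, had log2 fold changes of 0.08 ± 0.08 and 0.12 ± 0.10. Cfap61, at the spoke base, had 171, 164 and 122 CPM after red blood cells and 174, 205, 172 and 139 CPM after saline.

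The central pair held one lower and one higher gene at an unadjusted p under 0.05. Hydin, which builds a projection of the central pair and whose loss gives hydrocephalus in mice (chr8:110993600-111336885, plus strand), had 119.8, 107 and 123 CPM after red blood cells, against 138, 150.0, 145 and 140.4 CPM after saline. The groups did not overlap, and the log2 fold change was -0.30 ± 0.07 with an interval from -0.46 to -0.14 (edgeR adjusted p = 0.138, DESeq2 adjusted p = 0.0284). Cfap47 (chrX:78310164-78560957, minus strand) had 101, 112 and 89.8 CPM after red blood cells and 71.1, 87.3, 90.1 and 76.7 CPM after saline. Its groups met at the edge, with the lowest red blood cell library just under the highest saline library, and its log2 fold change was 0.31 ± 0.10 (edgeR adjusted p = 0.28). Cfap54 and Cfap65, of the same structure, had log2 fold changes of -0.15 ± 0.08 and -0.03 ± 0.10.

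Microtubule inner proteins line the inside of the doublets, and 12 of the 18 tested were above 0, with a median of 0.04. Cfap53, one of them, had 91.8, 89.1 and 83.5 CPM after red blood cells, against 63.4, 70.1, 78.2 and 80.4 CPM after saline, without overlap, and its log2 fold change was 0.27 ± 0.09 (edgeR adjusted p = 0.282). Cfap68 lay the other way, at 96.3, 85.2 and 81.8 CPM after red blood cells and 105, 93.2, 109 and 95.2 CPM after saline, with some overlap and a log2 fold change of -0.20 ± 0.09. Cfap126, the most abundant of this class, averaged 239.6 ± 13.6 CPM after red blood cells and 239.8 ± 15.4 CPM after saline (SD, n = 3 and 4). Cfap161, with the highest log2 fold change of the members at 0.40, had an interval from -0.02 to 0.83.

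Among the 10 other Cfap genes, Cfap58, a coiled-coil protein known from sperm tails (chr19:47926151-48023818, plus strand), had 31.0, 32.4 and 27.2 CPM after red blood cells, against 36.9, 42.8, 35.5 and 45.6 CPM after saline. The groups did not overlap, and the log2 fold change was -0.41 ± 0.11 (edgeR adjusted p = 0.197). Cfap36, the most abundant of them, averaged 161 ± 7.54 CPM after red blood cells and 156 ± 4.38 CPM after saline (SD, n = 3 and 4), and 45.0% of its exon bases overlap Ppp4r3b on the opposite strand. Cfap99 and Cfap418 had log2 fold changes of -0.21 ± 0.10 and -0.02 ± 0.09.

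**Figure D3:**
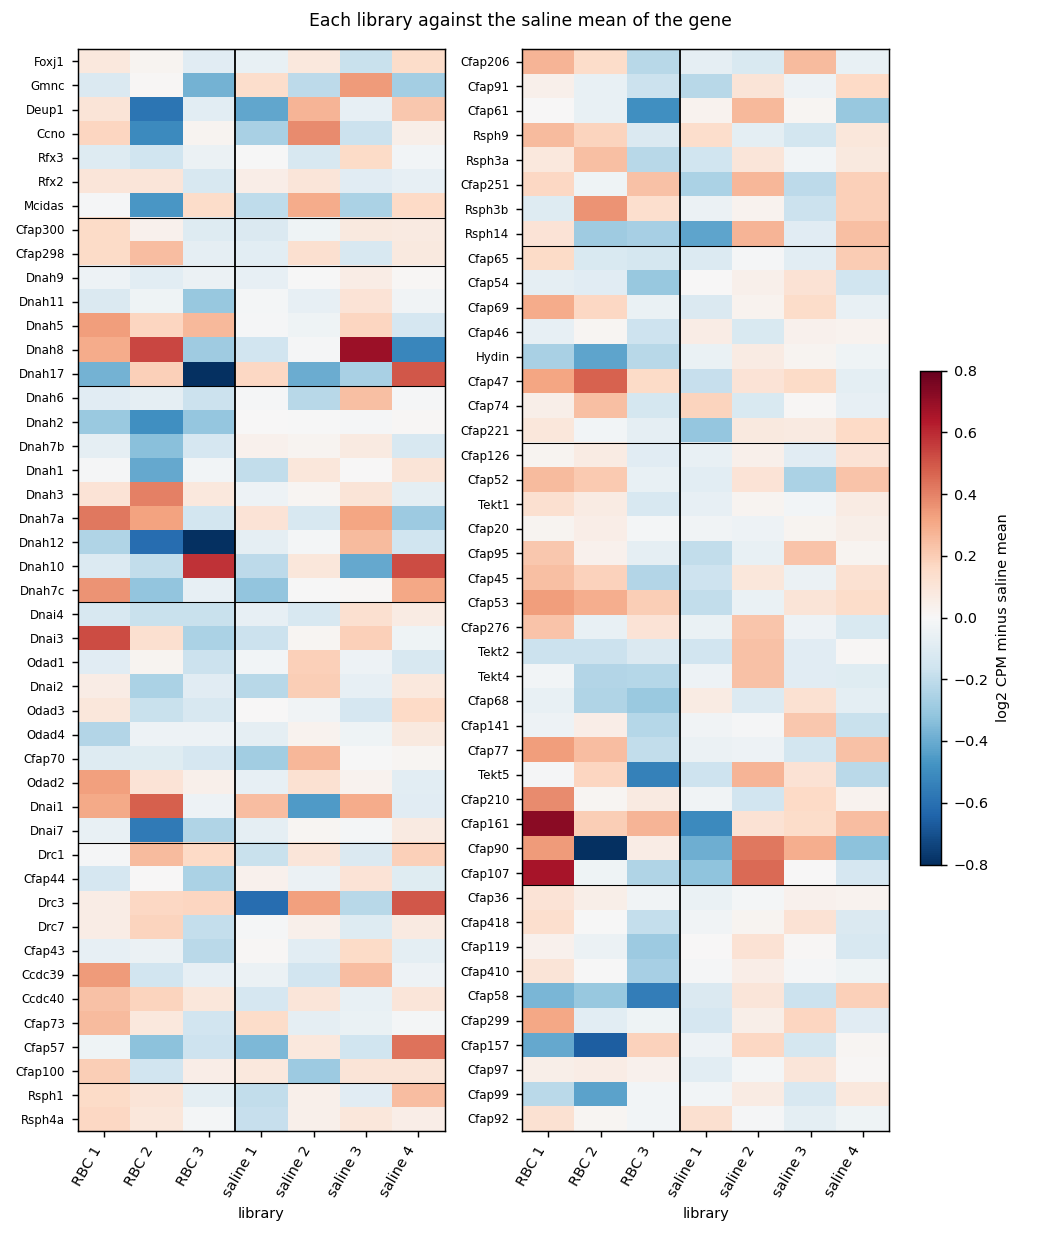
Log2 CPM of each of the 89 tested members in each library minus the saline mean of that gene (colour), red blood cell libraries left of the line and saline libraries right of it, rows in the same order of roles. Red blood cells 1 is mostly above the saline mean (56 of 89 members) and red blood cells 3 mostly below it (20 of 89 above), as is saline 1 (20 of 89 above).

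Levels of the members as a set differed between libraries of one group. Their mean log2 level relative to saline was 0.08, -0.03 and -0.11 in red blood cells 1 to 3, and -0.09, 0.04, 0.02 and 0.03 in saline 1 to 4. Red blood cells 1 was the highest library and red blood cells 3 the lowest, so the group held both ends of the range. Without red blood cells 1, 30 members were above 0 and 59 below. Without red blood cells 3, 50 were above and 39 below, and without saline 1, 38 were above and 51 below. The median of all genes was 0.0023, -0.0041 and -0.0035 in these 3 fits. Red blood cells 3 also had the highest levels of 8 mesenchymal markers (mean log2 level 0.61, against -0.16 and -0.32 in red blood cells 1 and 2 and -0.05 to 0.06 in the saline libraries) and of 8 endothelial markers (0.45, against -0.18 and -0.34 in red blood cells 1 and 2 and -0.12 to 0.14 in the saline libraries). All 8 mesenchymal markers lay above their saline mean in that library, and their summed level was 2822 CPM there, against 1738 and 1508 CPM in red blood cells 1 and 2 and 1766 to 1918 CPM in the saline libraries. Saline 1, nearly as low in the members, had a mesenchymal level of 0.06 and an endothelial level of 0.14. Both were the highest of the saline libraries. The part of mesenchymal and endothelial cells in the members' values was not tested.

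Of the 12 markers of the choroid plexus epithelium, whose cells bear the cilia, all 12 had a log2 fold change below 0, with a median of -0.10. Of these 12, 3 had an unadjusted edgeR p under 0.05 (background 4.32% lower). Here edgeR and limma-voom called 0 (background 0.0605% each) and DESeq2 called 2 (background 1.87%). Their mean log2 level was -0.10, -0.10 and -0.19 in the red blood cell libraries and 0.02, -0.06, 0.01 and 0.03 in the saline libraries, without overlap. The 8 macrophage markers were all above 0, with a median of 0.75. All 8 had an unadjusted edgeR p under 0.05 (background 5.22% higher), and in 7 the groups did not overlap (background 4.96% higher). Of these markers edgeR called 1, DESeq2 7 and limma-voom 0, with the same background shares as above. Their mean log2 level was 0.54, 1.04 and 0.85 in the red blood cell libraries and 0.10, -0.28, 0.05 and 0.13 in the saline libraries. The 10 erythroid markers, globins among them, had 0 at an unadjusted p under 0.05 by edgeR, and their summed level was 2863, 2841 and 2258 CPM in the red blood cell libraries and 3315, 2304, 3129 and 2212 CPM in the saline libraries. The part of these cells in the members' values was not tested.

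**Figure D4:**
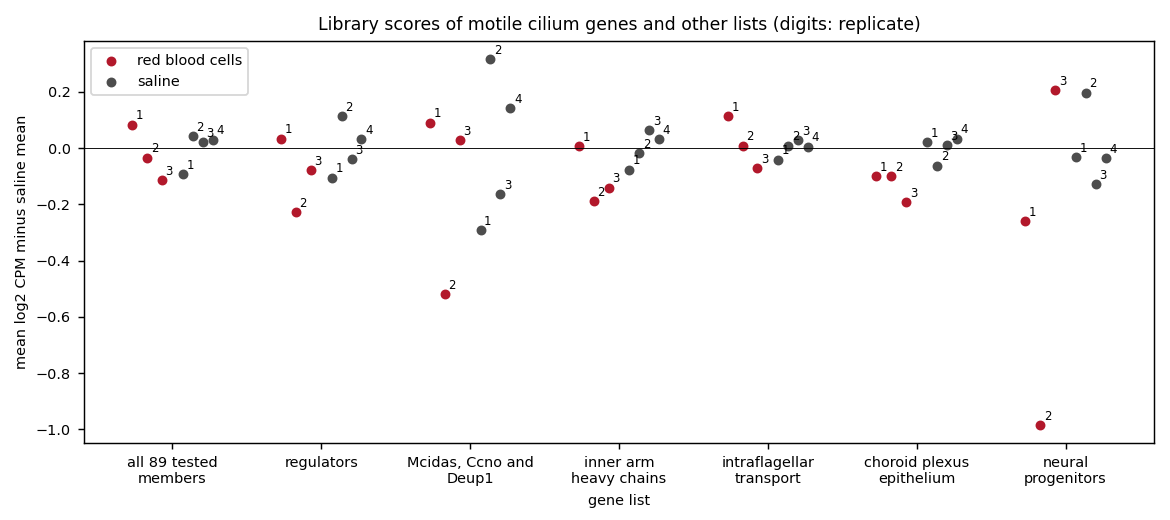
Mean log2 CPM relative to the saline mean in each library (points, red blood cells left of saline, digits for the replicate) for the 89 members, 5 further lists and the trio Mcidas, Ccno and Deup1. The members lie between -0.11 and 0.08 in all 7 libraries, while neural progenitor markers reach -0.98 in red blood cells 2.

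Long genes leaned to lower values in the members and over all genes. Of 21 members with at least 10 kb of exon, 13 were below 0 (61.9%), with a median of -0.11, and of all 1505 such genes, 978 were below 0 (65.0%), with a median of -0.05. Of 68 shorter members 30 were below 0 (44.1%), and of 13364 shorter genes 6470 (48.4%). Of the 21 long members, 5 had an unadjusted edgeR p under 0.05, beside 184 of all 1505 long genes. These were Dnah2, Dnah12, Hydin and Dnai7, which were lower, and Dnah5, which was higher. This split was chosen after the values were seen, and the part of length in the members' values was not tested.

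Levels were compared between genes per kilobase of exon. The divisor was the exon length deposited for each gene, which can differ from that of the transcript expressed. Foxj1 (208 CPM per kilobase in both groups), Rsph1 (171 after red blood cells, 164 after saline) and Cfap126 (113 in both) led, followed by Dnai4 (68.9 after red blood cells, 77.3 after saline), Cfap52 (72.4 after red blood cells, 66.2 after saline) and Tekt1 (66.3 after red blood cells, 65.3 after saline). The heavy chains, long proteins with long transcripts, spread over orders of magnitude. Dnah6 had 38.8 CPM per kilobase after red blood cells and 42.1 after saline, Dnah9 had 20.7 after red blood cells and 21.5 after saline, and Dnah11 had 11.1 after red blood cells and 12.3 after saline. Dnah2 had 4.84 after red blood cells and 6.24 after saline, and Dnah5 had 1.54 after red blood cells and 1.29 after saline. In saline 58 members exceeded 10 CPM per kilobase and 6 were below 1. Of the 91 neighbouring pairs in the saline order, 7 had ranges that did not overlap, among them Rsph1 above Cfap126 and Cfap126 above Dnai4, while Foxj1 and Rsph1 overlapped.

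**Figure D5:**
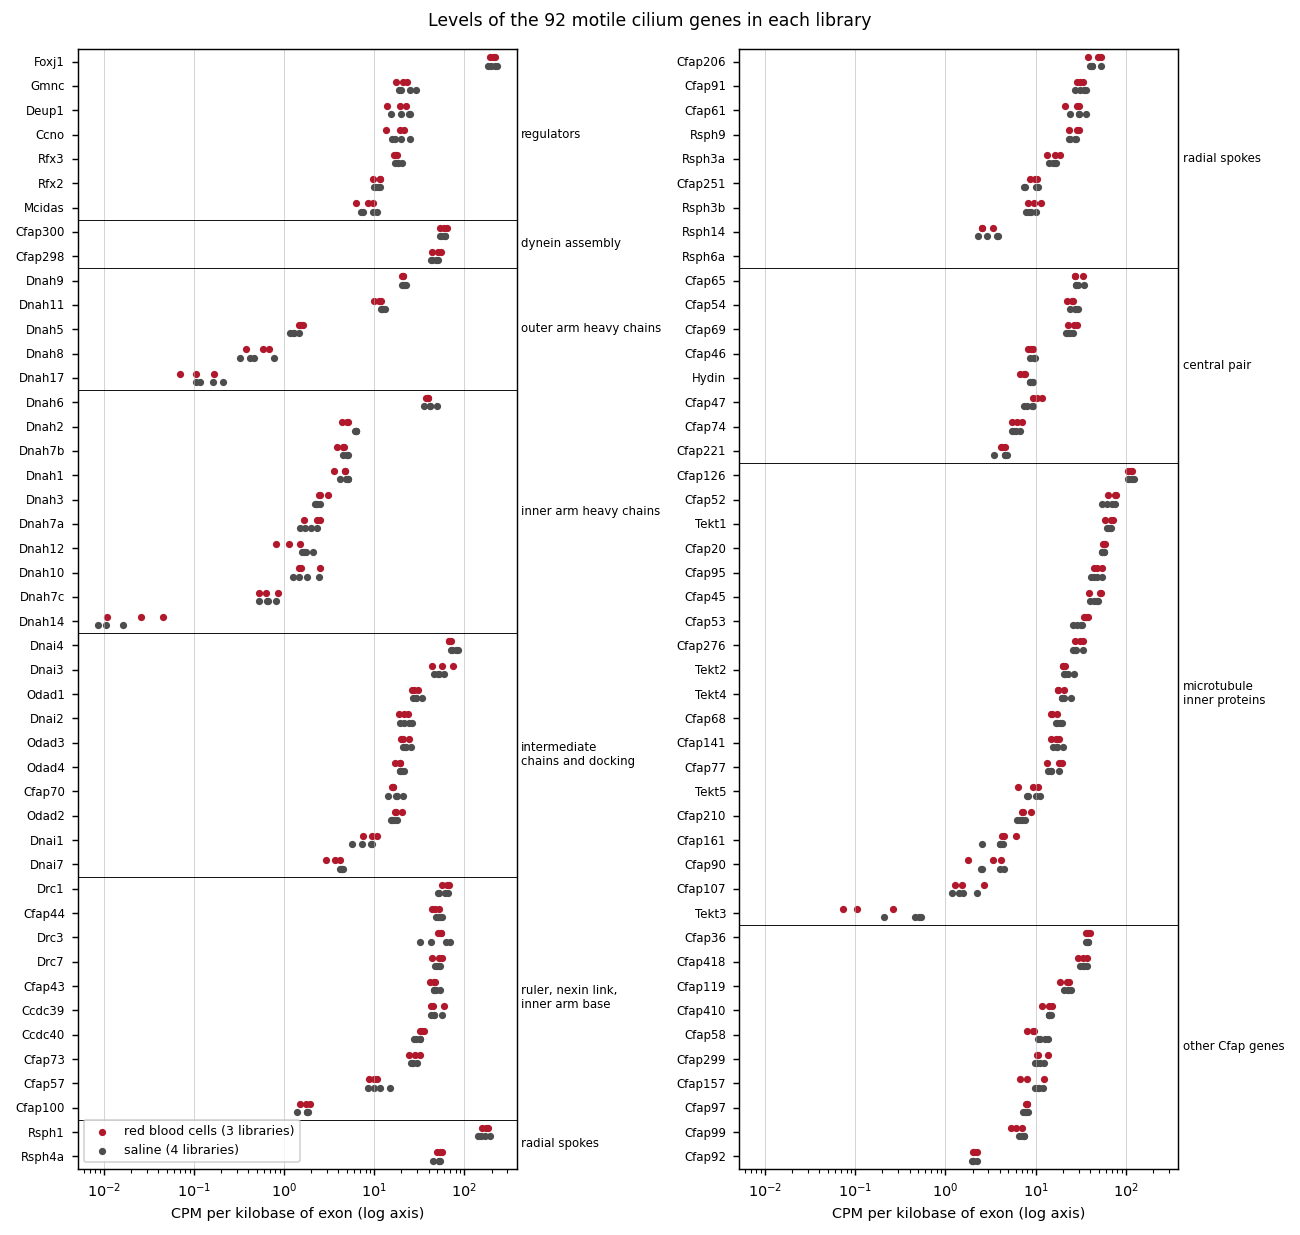
CPM per kilobase of exon (log axis) of the 92 genes in each red blood cell library (red) and each saline library (grey), grouped by role and ordered by the saline mean. Foxj1 leads at 208 in both groups, points at a count of 0 are not drawn, and Rsph6a had 0 counts in every library.

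Further ciliary genes outside these families were counted in the same way. Of 131 genes in 6 lists, 128 were tested, with 63 above 0 and 65 below, and the median was -0.0023 on the log2 scale. The edgeR test called 0 of them (background 0.0605%), and 6 had an unadjusted p under 0.05 (4.69%, beside 9.54% of all genes). Every red blood cell library lay below every saline library in 7 of the 128 (background 4.63%), and above in 0 (background 4.96%). The 95% interval lay inside a 1.5-fold change for 122 (95.3%, beside 68% of all genes).

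Tppp3, a tubulin-binding protein, had 84.9, 90.3 and 64.6 CPM after red blood cells and 64.7, 66.3, 63.2 and 56.7 CPM after saline, with a log2 fold change of 0.35 ± 0.11 (edgeR adjusted p = 0.251), and it passed the threshold without red blood cells 3. Sass6, the cartwheel protein of new centrioles, had 23.4, 15.3 and 22.3 CPM after red blood cells and 11.2, 16.2, 16.5 and 16.4 CPM after saline, with a log2 fold change of 0.43 ± 0.18. In both genes one red blood cell library lay within the saline range. Dnali1, an inner arm light intermediate chain, had 54.4, 52.0 and 44.4 CPM after red blood cells and 56.2, 68.4, 54.4 and 67.6 CPM after saline, with a log2 fold change of -0.29 ± 0.11. Dync2h1, the heavy chain of the motor that returns cargo from the ciliary tip, had 193, 184 and 175 CPM after red blood cells and 199.5, 206, 227 and 204 CPM after saline. Its groups did not overlap, and its log2 fold change was -0.19 ± 0.07 (edgeR adjusted p = 0.354). Bbs2, a subunit of the BBSome that carries membrane proteins in cilia, had 48.3, 46.0 and 53.2 CPM after red blood cells and 56.0, 59.8, 57.8 and 55.8 CPM after saline. Its groups did not overlap either, and its log2 fold change was -0.22 ± 0.08.

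By list, the 17 dynein assembly factors tested had a median of -0.02, the 7 dynein light chains -0.01, the 14 centriole amplification genes 0.01 and the 40 other axonemal genes -0.04. The 30 intraflagellar transport genes had a median of 0.03, with 19 above 0, and the 20 BBSome and basal body genes -0.01. The other genes named by the same rule were Dnaaf3 and Pih1d1 (dynein assembly), Dynll2 (a light chain), Cep63 (centrioles), Armc3, Ift27 (intraflagellar transport) and Cc2d2a (the ciliary transition zone), with log2 fold changes between -0.25 and 0.16. Among the other axonemal genes, 2 had an unadjusted edgeR p under 0.05: Tppp3, which was higher, and Armc3, which was lower.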

How the data were processed

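Libraries were directional and made from poly(A) RNA, per the labels' protocols. The authors deposited whole-number read counts of each gene in 7 libraries, beside positions and exon lengths, per the file headers. Tools named in the submitters' processing notes are STAR 2.6.1b, cutadapt 2.5 and featureCounts 2.0.6, with GRCm39 as the build. Which annotation release, strand setting and treatment of multi-mapped reads were used is not stated in them. Reads of overlapping opposite-strand genes and of near-identical copies (Dnah7a, Dnah7b and Dnah7c; Rsph3a and Rsph3b) may therefore be shared. Of 40879 genes listed, 6 have broken lines; none is a member, and they were left out with their continuation lines (0.107% of counts). Total counts ran from 4393860 to 8386928, and no library pair agreed within sampling noise (chi-square of 3.60 to 14.2 per degree of freedom). 

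Counts were tested with edgeR 4.0.16 under R 4.3.3 (robust quasi-likelihood F test, two-sided, TMM, filterByExpr, 14869 genes, Benjamini-Hochberg over all of them, threshold 0.05). Standard errors and 95% intervals came from the F statistic. CPM values use TMM library sizes, and list levels are means of log2 CPM (prior count 2) minus the saline mean. Alternatives were DESeq2 1.42.0, limma 3.58.1 (voom), other normalizations and filters, no robust estimation, a replicate block and libraries left out. The edgeR fit was tested on simulated data. Named genes were, per role, the 2 with the smallest p and the 2 most abundant per kilobase, the 10 genes taken by name, the untested members and, per further list, the 2 with the smallest p. Dnah10, Dnah8, Dnah17, Cfap161, Cfap107, Tekt1, Ttr and the genes in the account of promoters were named outside this rule. The members, the lists and the rule were chosen with earlier results of these data known. Promoters matched by symbol or synonym. Figures were drawn with matplotlib 3.10.9.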

Additional observations from a re-analysis of the deposited data

How the results depend on the processing

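The members called by any alternative were Dnah2 (under 3 of them) and Hydin (under 1). DESeq2 called 2 members and 277 genes, with 7 members at an unadjusted p under 0.05 (7.87%, beside 7.51% of all genes). Without a count filter edgeR called 1 member, Dnah2, and 136 genes, and without robust estimation 16 genes. Without red blood cells 2 and saline 4 it called 40 genes and 0 members. With each library left out in turn, edgeR called 1 to 283 genes, 0 to 1 members and 0 to 1 further ciliary genes. The highest values came without red blood cells 3 (Dnah2, adjusted p = 0.0329, and Tppp3), and leaving out red blood cells 2 gave 34 genes, red blood cells 1 gave 17, saline 4 gave 5, and each of saline 1, 2 and 3 gave 1. Members at an unadjusted p under 0.05 numbered 8 to 18 (9.09 to 20.2%), and the share of all genes ran from 7.35 to 13.4%. In the same fits the median log2 fold change of the members ran from -0.062 when red blood cells 1 was left out to 0.051 when red blood cells 3 was. Members with an interval inside 1.5-fold numbered 66 to 74. The cause of these shifts was not tested. Of the 89 members, 51 kept their sign under all 16 alternatives.

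Deviations of same-numbered libraries correlated at -0.008, -0.17 and -0.17, and those of differently numbered libraries at -0.21 to 0.26. With so few libraries these values cannot tell whether replicate numbers pair the samples. With the replicate block edgeR called 2 genes and 0 members, the median of the members was 0.026 and 68 intervals lay inside 1.5-fold. Saline 4 has no partner there. Depth limits Cfap107, Dnah17 and the untested Dnah14, Tekt3 and Rsph6a.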
